A study of Mus musculus with 9 samples.

Results

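The NIC tumor samples from mice were compared, gene by gene, with the abnormal non-malignant samples of the same series, whose subject is T-ALL, a leukemia of T cell precursors. The arrays were chosen by their titles: 3 NIC tumor and 3 abnormal non-malignant arrays, 6 of the 9 in the series. The other 3 are controls and are given here as levels. Of 18161 genes with a probe set of their own, 13288 were bright enough to be tested. Each array is an Affymetrix expression array hybridised with RNA from sorted cells, which was extracted with TRIZOL and RNeasy and labelled with biotin as amplified complementary RNA. NIC is the field's usual abbreviation for the intracellular part of Notch, but the labels do not spell it out. The series title names excess NOTCH1; the labels give no genotype, strain, age, promoter or vector, do not say which cells were sorted, and do not say what made the non-malignant samples abnormal. Whether each array of a group stands for its own animal is likewise not stated, and the p-values then measure only the spread between these samples, which may be technical.

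Notch1 is a receptor of lymphoid progenitors that is cut when it meets a ligand on a neighbouring cell. The freed intracellular part enters the nucleus, joins the DNA-binding protein RBPJ and switches on genes such as Hes1, Dtx1, Il2ra, Ptcra and Myc. This signal commits progenitors to the T lineage and carries immature thymocytes through early growth, and mutations that leave it switched on are a frequent cause of T-ALL. The T lineage was read from marker genes, since the labels do not name the sorted cells. Over 14 such markers tested, 13 log2 differences between tumors and non-malignant samples were negative, with a median of -0.86. Cd3e, a chain of the CD3 complex, read 12.36, 12.13 and 12.19 on the log2 scale in non-malignant samples 1 to 3 and 11.99, 11.76 and 11.86 in tumors 1 to 3, well above the array medians, which lay between 5.67 and 5.77.

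The list with the most calls was that of interferon-response genes, of which 18 of 28 tested were lower in the tumors, against 2.7% of all genes, with Ifi27l2a, Usp18, Ifit1 and Ifih1 between 5-fold and 17.9-fold lower. The membrane protein gene Tm4sf5, the Notch target Hey1, the recombinase gene Rag2 and the transcription factor genes Bcl6 and Xbp1 fell on all 3 tumor arrays as well. Genes of ribosome biogenesis and glycolysis lay higher in the tumors by smaller amounts, 8 of 38 and 4 of 17 passing the test, against 1.53% of all genes called higher. With non-malignant 2 and 3, which were nearly alike, averaged into 1 sample, none of the 38 and 1 of the 17 passed. Of the 28 interferon-response genes, 8 then passed. Notch1 itself and most of its targets did not pass the test. Of 17 targets tested, 9 had all tumors below all non-malignant values and 3 had all tumors above, against 14.8% and 12.3% of all genes. In bulk samples such as these, fewer cells of a type and less RNA per cell cannot be told apart.

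In all, 562 of 13288 genes (4.23%) passed an adjusted p of 0.05 (limma, Benjamini-Hochberg over all genes tested): 203 were higher in the tumors (1.53%) and 359 lower (2.7%). Of these, 95 were higher and 261 lower by at least 2-fold. All 562 had groups that did not overlap, but so did 3600 of all genes tested, 12.3% with the tumors above and 14.8% with the tumors below. The median log2 difference over all genes was 0.03. These counts depend on single arrays. Non-malignant arrays 2 and 3 were nearly alike: over the genes tested their differences had an SD of 0.16 and no gene was 2-fold apart, whereas non-malignant 1 differed from them by SDs of 0.38 and 0.37, with 302 and 262 genes 2-fold apart. Whether they are one sample hybridised more than once is not given in the labels. With both averaged into 1 sample, 73 genes passed, all of them among the 562, 11 higher and 62 lower. Without non-malignant 2 there were 67 calls, without non-malignant 3 there were 57, without non-malignant 1 there were 170, and without tumor 1 there were 3407. Leaving out control 1, control 3, tumor 2 or tumor 3, which all enter the estimate of the spread, gave 214, 204, 227 and 324. For this reason the accounts below say which calls also passed with non-malignant 2 and 3 averaged. At an unadjusted p under 0.05 there were 3442 genes, 25.9% of those tested. A set of 40 genes passed in all 22 alternative fits, and 53 passed in all 9 fits that left out an array.

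The 3 tumors did not lie at equal distances from the non-malignant samples. Tumor 1 was the nearest, with SDs of difference from them of 0.46 to 0.47 and 521 to 564 genes 2-fold apart, while tumor 3 was the farthest, with SDs of 0.89 to 0.93. The tumors were also unlike one another: tumors 1 and 2 differed by an SD of 0.63, tumors 2 and 3 by 0.62, and tumors 1 and 3 by 0.79. Beyond all 3 non-malignant values by at least 2-fold, tumor 1 had 164 genes higher and 270 lower, tumor 2 had 570 and 931, and tumor 3 had 701 and 1898. Among the 359 genes that fell, tumor 1 had the smallest difference in 252 and tumor 3 the largest in 222. Tumor 3 also had the narrowest spread of values, an SD of 1.97 against 2.12 to 2.19 on the other arrays. Its mean signal over the bioB spike-in probe sets was the highest, 10.87 against 7.42 to 9.21. Within groups, the root mean square SD was 0.49 for tumors, 0.23 for non-malignant samples and 0.27 for controls. RNA integrity, read as the 3′ minus the 5′ Gapdh signal, was -0.16 to -0.05 in the tumors and 0.75 in non-malignant 1, the highest of all 9 arrays. Read from Actb it was 0.1 to 0.22 in the tumors and 0.38 in non-malignant 1, and control 2 was the highest at 0.46. The part of these array features in the results was not tested.

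Interferons are secreted proteins that, through STAT and IRF factors, switch on a shared set of antiviral genes, whose promoters often carry a short tandem element called the interferon-stimulated response element. Of the 28 interferon-response genes tested, 18 were lower in the tumors and none was higher, against the 2.7% of all genes that were called lower. Their median log2 difference was -1.55, against 0.03 for all genes, and this median was alike on the 3 tumor arrays, at -1.54, -1.44 and -1.65; in controls 1 to 3 it was -1.92, -1.55 and -1.97. Tumor 1, the nearest to the non-malignant samples over all genes, thus had an interferon median between those of the other tumors. With non-malignant 2 and 3 averaged, 8 of the 28 still passed.

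The promoters of Ifit1 and Gbp7 are shown because both genes fell in every fit and carry this element. They are shown as RefSeq gives them for the GRCm38.p6 assembly, 250 bases that end just before the annotated start, 5′ to 3′ on the strand of the gene. The capitals mark matches to the core of the element, GAAA followed by any 2 bases and GAAA again, on either strand; a match on the opposite strand reads TTTC, 2 bases, TTTC.
Ifit1, chr19:34640639-34640888, + strand: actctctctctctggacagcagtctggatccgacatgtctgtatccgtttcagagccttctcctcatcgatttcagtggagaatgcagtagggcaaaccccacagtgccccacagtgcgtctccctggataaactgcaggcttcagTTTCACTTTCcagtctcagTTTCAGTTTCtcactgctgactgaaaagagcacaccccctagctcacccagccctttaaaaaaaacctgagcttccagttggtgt
Gbp7, chr3:142530086-142530335, + strand: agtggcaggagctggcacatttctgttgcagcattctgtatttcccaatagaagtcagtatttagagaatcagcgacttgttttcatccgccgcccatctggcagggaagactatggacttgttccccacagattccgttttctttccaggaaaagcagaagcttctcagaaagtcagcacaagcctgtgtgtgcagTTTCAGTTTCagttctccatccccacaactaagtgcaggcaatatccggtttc
Ifit1 held 2 matches, 104 and 85 bases before the start, and Gbp7 held 1, at 53 bases. Matches were counted in a longer window, from 250 bases before to 50 bases after the start. There, 301 of 10707 tested genes with a promoter sequence (2.81%) held a match. Among genes called lower in the tumors the share was 35 of 275 (12.7%), and among those called higher it was 1.73%. In the interferon list 10 of 20 members with a promoter sequence held one, 6 of them among the 13 called members. These matches describe letters only and show no binding.

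Ifi27l2a, an interferon-induced membrane protein gene, read 9.86, 10.73 and 10.27 in non-malignant 1 to 3 and 6.29, 6.36 and 5.72 in tumors 1 to 3. The groups were far apart, and the control arrays, at 6.44, 7.14 and 7.08, lay near the tumors. Its log2 difference was -4.16 ± 0.29 (SE), 17.9-fold, at an adjusted p of 0.000243 (limma). Usp18, which removes the ubiquitin-like protein ISG15 and restrains interferon receptor signalling, read 7.78, 8.87 and 8.92 in the non-malignant samples. In the tumors it read 5.33, 4.73 and 4.68, where tumors 2 and 3 were below the dim level, the 40th percentile of each array's probe sets. Its difference was -3.61 ± 0.39 as measured and -3.24 when dim values were raised to that level, which is a lower bound on the size of the fall. Ifit1, an antiviral protein that binds foreign RNA, read 7.77, 8.84 and 8.7 against 5.4, 5.22 and 4.35, a difference of -3.45 ± 0.39, or -3.13 with its 1 dim tumor value raised. For both genes non-malignant 1 was the lowest of its group, yet above every tumor.

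Ifih1 encodes MDA5, a sensor of double-stranded RNA. It read 8.47, 8.93 and 8.76 in the non-malignant samples and 6.55, 6.08 and 6.56 in the tumors, a difference of -2.32 ± 0.18. Zbp1, a sensor of Z-form nucleic acid, was tight in the non-malignant group at 9.15, 9.32 and 9.18 and fell to 7.13, 6.83 and 5.92, a difference of -2.59 ± 0.28. Other genes of this kind outside the list, named after their values were seen, fell too: Ifi27 by -1.77 ± 0.19, Oas3 by -1.21 ± 0.15 and Parp12 by -2.43 ± 0.24, or -1.68 with its 3 dim tumor values raised. All 8 of these genes passed in all 22 alternative fits, Ifi27l2a, Usp18 and Ifit1 included. The transcription factor genes of the pathway were less certain: Irf9 (-2.26 ± 0.33) and Irf7 (-1.62 ± 0.26) passed here but not with non-malignant 2 and 3 averaged or without either of these arrays, and Rtp4 (-3.06 ± 0.45) and Trim30a (-2.13 ± 0.32) behaved in the same way. Stat2, the partner of Irf9, read 6.41, 7.47 and 7.4 against 6.45, 7.17 and 5.97, with overlapping groups and an adjusted p of 0.337. Among the members that did not pass, Eif2ak2, which encodes the RNA-dependent kinase PKR, was the single one with a positive difference, at 0.13.

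**Figure D1:**
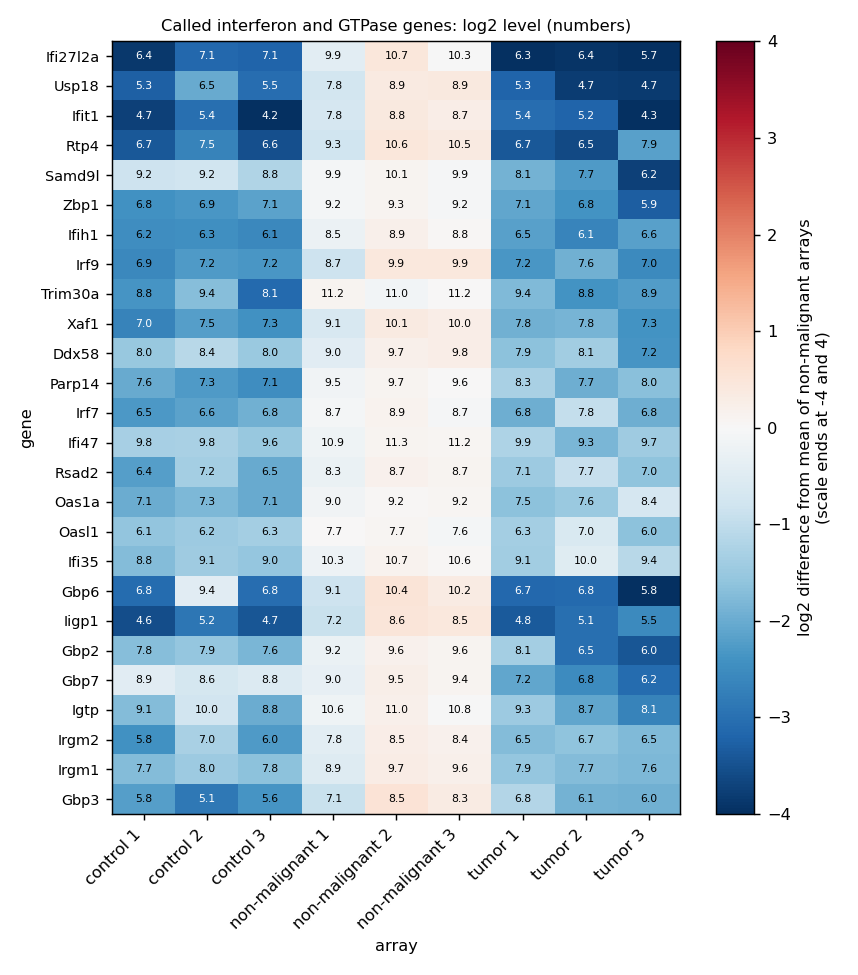
Heat map of the called interferon-response and GTPase genes (rows) on the 9 arrays (columns), with the log2 level as the number in each cell and colour for the log2 difference from the mean of the non-malignant arrays, on a scale that ends at -4 and 4. The 3 tumor columns are blue, below the non-malignant mean, in every row, as for Ifi27l2a at 6.29, 6.36 and 5.72 against 9.86 to 10.73.

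Guanylate-binding proteins and immunity-related GTPases are large GTPases that coat and break the vacuoles of intracellular pathogens and respond mostly to interferon gamma. Of 11 genes tested in this family and its regulators, 8 were lower in the tumors, against 2.7% of all genes, and none higher. The median was -1.7, at -1.46, -1.88 and -1.91 in tumors 1 to 3 and -1.72, -0.78 and -1.83 in controls 1 to 3. Gbp7 read 8.98, 9.54 and 9.44 in the non-malignant samples and 7.24, 6.79 and 6.25 in the tumors, 5.89-fold lower. Its control values of 8.88, 8.63 and 8.78 lay nearer to the non-malignant group than the family's control medians did. Iigp1 read 7.2, 8.59 and 8.52 against 4.75, 5.08 and 5.55, a difference of -2.98 ± 0.37, or -2.8 with 2 dim tumor values raised. Gbp7 and Iigp1 passed in all 22 fits; Irgm1 (-1.69 ± 0.23) passed with the averaged arrays but not without non-malignant 3. Gbp6 (-3.43 ± 0.67), Gbp2 (-2.59 ± 0.44) and Igtp (-2.07 ± 0.36) did not pass with the averaged arrays, nor without tumor 2, non-malignant 2 or non-malignant 3. The regulators Irf1 and Irf8 had differences of -0.64 and -0.19 and were not called. The interferon motif shown above stood in 7 of the 9 promoters of this family that had a sequence; the family was added to the motif count after its values were seen.

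Of 30 genes of cytokine receptors, JAK kinases, STAT factors and SOCS inhibitors, 4 were lower, against 2.7% of all genes, and none higher, with a median of -0.47 and tumor medians of -0.1, -0.71 and -0.81. The interferon receptor gene Ifnar1 differed by -0.84 ± 0.19 at an adjusted p of 0.0456 (limma), and Stat4, which transmits interleukin-12 signals, by -2.43 ± 0.35. Neither passed with non-malignant 2 and 3 averaged, nor did Il21r (-1.49 ± 0.33). MHC class I presentation genes, which interferon also induces in many cells, gave no call among 16, with a median of -0.13; 4 of the 16 had an unadjusted p under 0.05, near the 25.9% of all genes. Markers of other cells were followed beside the interferon genes. The linear signal summed over 16 myeloid markers was 1674 to 1885 in the non-malignant samples and 1136, 2867 and 1706 in the tumors, and over 8 antigen-presenting cell markers it was 925 to 1100 and 864, 1239 and 1105. No gene of either list was called. In limma, 4 of 16 and 0 of 8 had an unadjusted p under 0.05, against 25.9% of all genes. Itgam, Adgre1, Ciita, Cd83 and Xcr1 were too dim on most arrays to be tested. The summed signals of tumors and non-malignant samples overlapped in both lists. Single markers moved within the sums: of the 16 myeloid differences, 9 were positive and 7 negative. S100a8, a granulocyte marker, read 8.03, 8.02 and 8 in non-malignant 1 to 3 and 4.96, 8.35 and 5.64 in tumors 1 to 3.

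The genes of CD4+CD8+ thymocytes and V(D)J recombination, which assembles T cell receptor genes, were lower in the tumors, 6 of 25 called, against 2.7% of all genes, and none higher. Their median was -0.92, with tumor medians of -0.46, -0.69 and -1.32, lowest in tumor 3. Rag2, a subunit of the recombinase, read 9.6, 9.31 and 9.28 in the non-malignant samples and 7.11, 5.85 and 6.08 in the tumors, 8.29-fold lower (difference -3.05 ± 0.35). Its partner Rag1 read 12.59, 12.51 and 12.51 against 11.5, 7.62 and 7.36. Tumor 1 had a Rag1 value near the non-malignant group while tumors 2 and 3 were far below it, so the difference of -3.71 ± 0.88 had an adjusted p of only 0.0485 (limma) and did not pass with non-malignant 2 and 3 averaged or in the fits that left out any array but tumor 1. Ptcra, which encodes the pre-T cell receptor alpha chain, was lowest in the same tumors, going from 12.19, 11.75 and 11.65 to 10.3, 7.39 and 6.39. Its adjusted p was 0.0336, or 0.136 with the averaged arrays, and it kept its call among the left-out fits only without control 2 and without tumor 1.

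Dntt, the terminal transferase that adds bases at receptor junctions, read 12.18, 11.39 and 11.35 in the non-malignant samples. Tumor 1 held 11.98, whereas tumors 2 and 3 read 5.4 and 7.56, which was the widest range among tumors of all genes named, and the difference of -3.33 ± 1.27 was not called. Bcl6, a transcriptional repressor, was low on all 3 tumors: 8.62, 8.67 and 8.52 against 6.8, 6.02 and 5.33, 5.88-fold lower. Rag2 and Bcl6 passed in all 22 fits and are the 2 members that passed with the averaged arrays. The coreceptor genes did not pass: Cd4 read 12.1, 11.12 and 11.24 against 10.77, 10.06 and 8.57, and Cd8a read 11.87, 13.04 and 12.94 against 12.27, 12.13 and 10.27. For Cd4 the groups did not overlap, and for Cd8a they did. In both, tumor 3 was the lowest of all 9 arrays. Overlap depended on the probe set. On another Cd8a probe set all tumors were below, at 12.03, 11.7 and 9.93 against 12.56 to 12.63. On a second Cd4 probe set the groups overlapped.

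Of 29 genes of the T cell receptor and CD3 pathway, 6 were lower, against 2.7% of all genes, and 1 was higher, a share near the 1.53% of all genes, with a median of -0.65 and tumor medians of -0.09, -0.84 and -0.75. Cd247, the CD3 zeta chain, read 11.57, 11.55 and 11.52 in the non-malignant samples and 10.72, 9.52 and 9.16 in the tumors. Rasgrp1, which activates Ras downstream of the receptor, and Prkcq, protein kinase C theta, differed by -1.51 ± 0.29 and -0.75 ± 0.15. The one gene above was Fyn, a Src family kinase, at 11.62, 11.12 and 11.2 against 12.21, 12.61 and 12.3. None of the 7 passed with non-malignant 2 and 3 averaged. Over the 14 T lineage markers, 13 differences were negative, with a median of -0.86, although only Cd247 was called; the linear signal summed over them was 67959 to 69084 in the non-malignant samples and 54255, 39970 and 31806 in tumors 1 to 3. The part of this lower marker signal in the thymocyte gene results was not tested.

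**Figure D2:**
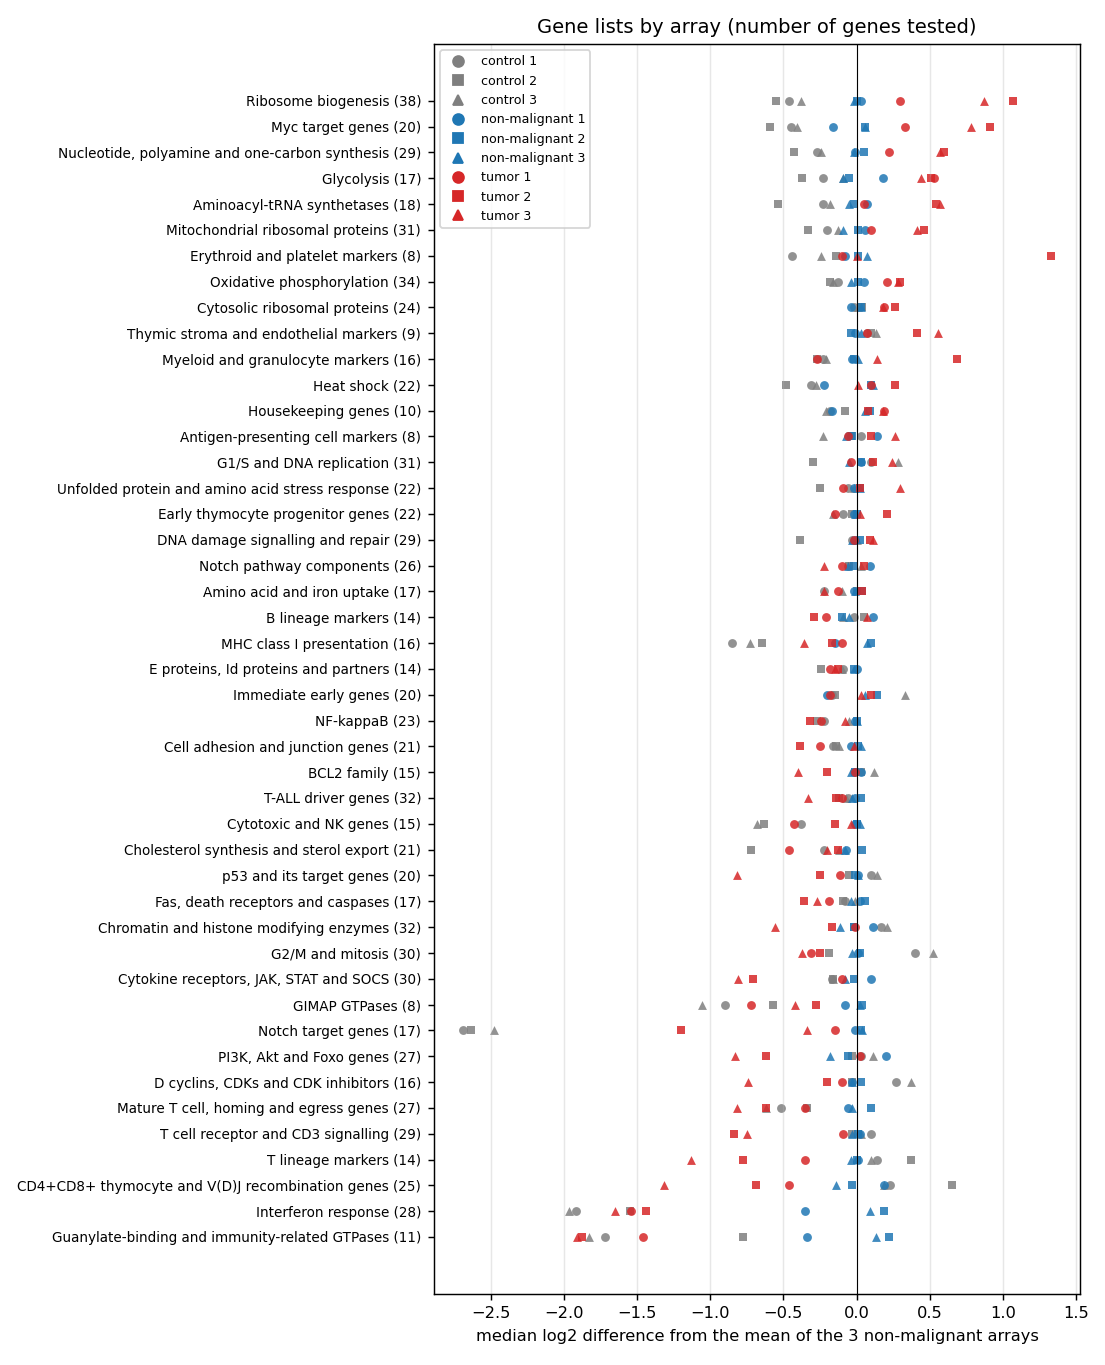
Median log2 difference from the non-malignant mean for gene lists, with 1 point per array. For the interferon list the 3 tumor points lie close together at -1.54, -1.44 and -1.65, while for the CD4+CD8+ thymocyte list they lie apart at -0.46, -0.69 and -1.32.

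Notch target genes were compared because the series concerns NOTCH1. Of 17 tested, Hey1 and Ptcra were lower, Myc was higher, and 14 did not pass, against 2.7% of all genes called lower and 1.53% called higher; 12 of the 17 had an unadjusted p under 0.05, against 25.9% of all genes. The list median was -0.51. All tumors lay below all non-malignant values in 9 of the 17, against 14.8% of all genes, and above them in 3, against 12.3%. With non-malignant 2 and 3 averaged, Hey1 alone passed. Hey1, a basic helix-loop-helix repressor, read 9.59, 11.07 and 10.85 in the non-malignant samples and 6.98, 7.12 and 7.18 in the tumors, with controls at 6.14, 6.57 and 6.45. The 3 tumors were nearly equal, and the difference of -3.41 ± 0.34, 10.6-fold, passed in all 22 fits. Hes5 had a similar pattern at lower signal, 6.13, 7.94 and 7.78 against 5.81, 5.88 and 5.88, but was not called (adjusted p 0.0718). On a second Hes5 probe set the groups overlapped, at 6.36, 7.96 and 6.75 against 6, 6.69 and 6.23. Other direct targets stayed high in both groups and far above the controls. Dtx1, a regulator of Notch, read 13.28, 13.2 and 13.14 against 13.06, 12.29 and 13.02, with controls between 7.96 and 8.08. Hes1 read 9.62, 10.49 and 10.49 against 10.14, 8.92 and 10.02, and the groups overlapped. Il2ra, the interleukin-2 receptor alpha chain, read 9.83, 10.28 and 10.21 against 10.56, 10.46 and 10.97, above the non-malignant group by 0.56 ± 0.22 at an adjusted p of 0.146. Nrarp, an inhibitor of Notch that Notch induces, read 9.46, 10.11 and 10.02 against 10.48, 10.23 and 12.13, with tumor 3 far above the other tumors and no call.

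The receptor genes differed by tumor. Notch1 read 12.88, 12.97 and 12.87 in the non-malignant samples; tumor 1 matched them at 12.92, tumor 3 read 10.81, and tumor 2 read 9, below the controls at 9.81, 10 and 10.34. A second Notch1 probe set gave the same order, 12.13, 11.09 and 9.57 in tumors 1, 3 and 2 against 11.78 to 11.93 in the non-malignant samples, but there tumor 2 lay just above the controls at 9.53, 9.14 and 9.5. The mean difference of -2 ± 0.75 was not called (adjusted p 0.136). Notch3 lay below the non-malignant values of 11.58, 11.56 and 11.58 in every tumor, at 11.17, 10.37 and 9.96, and Heyl read 10.81, 10.87 and 10.95 against 10.52, 8.42 and 9.62; neither was called. Tumor 2, with the lowest Notch1 signal, also had the lowest Hes1, Dtx1 and Heyl of the 3. Over the list the tumor medians were -0.15, -1.2 and -0.34, against control medians of -2.69, -2.64 and -2.48. None of 26 other Notch pathway components was called, with a median of -0.08, and 8 had an unadjusted p under 0.05, against 25.9% of all genes. Fbxw7, the ubiquitin ligase subunit that marks Notch and Myc for breakdown, read 8.58, 8.69 and 8.85 against 7.8, 7.28 and 5.73 and missed the threshold at an adjusted p of 0.0515.

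**Figure D3:**
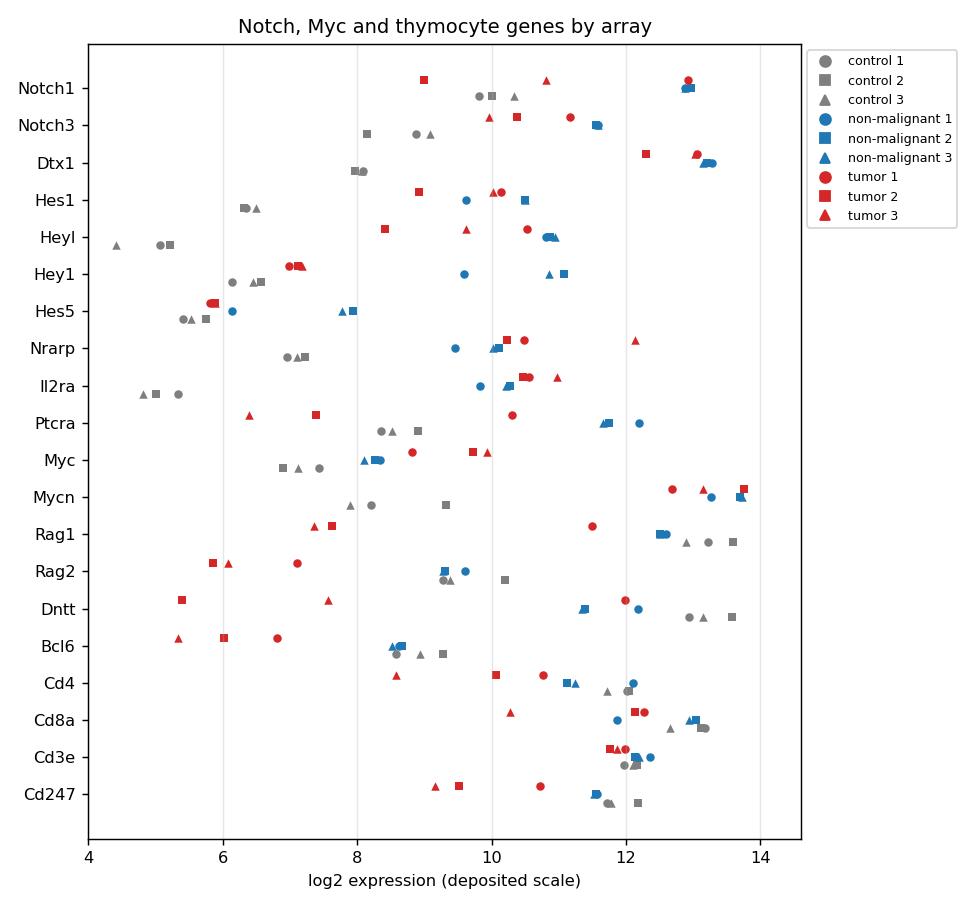
Log2 expression of Notch, Myc and thymocyte genes, with 1 point per array in the 3 groups. Hey1 falls to 6.98 to 7.18 in all 3 tumors, while Dtx1 stays at 12.29 to 13.06 and Notch1 spreads from 9 to 12.92.

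Among the gene lists, calls above the non-malignant samples were most frequent in lists of growth and metabolism. Myc, the transcription factor that drives ribosome and nucleotide synthesis, read 8.34, 8.27 and 8.1 in the non-malignant samples and 8.81, 9.72 and 9.93 in the tumors, 2.38-fold higher, with controls at 6.9 to 7.43. Its adjusted p was 0.0432, or 0.164 with the averaged arrays, and it kept its call in 8 of 22 alternatives, among the fits that left out an array only in the one without tumor 1. Of 20 Myc target genes, 2 passed, against 1.53% of all genes, and 15 had tumors above all non-malignant values, against 12.3%; the median was 0.65. None of the 20 passed with the averaged arrays. Cad, the enzyme that starts pyrimidine synthesis, read 8.65, 8.47 and 8.46 against 9.53, 10.19 and 10.01, and Ldha, lactate dehydrogenase A, differed by 0.47 ± 0.11; with the averaged arrays their adjusted p was 0.177 and 0.171 (limma).

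Ribosome biogenesis, the making of ribosomal RNA and its assembly in the nucleolus, gave 8 higher and none lower of 38, against 1.53% of all genes called higher. The median was 0.75, at 0.3, 1.07 and 0.87 in tumors 1 to 3, and 28 of the 38 had non-overlapping groups with the tumors above, against 12.3% of all genes. Rrp12 read 6.42 on each non-malignant array and 7.16, 8.22 and 7.78 in the tumors, and Pes1, part of a complex that processes large-subunit RNA, rose from 8.27, 8.27 and 8.32 to 9.04, 9.32 and 9.02. Mybbp1a rose by 1.37 ± 0.28 and Ddx56, an RNA helicase, by 0.83 ± 0.16. With non-malignant 2 and 3 averaged none of the 38 passed, and none of these 4 calls held without non-malignant 1, 2 or 3 or without tumor 2. Aminoacyl-tRNA synthetases gave 2 of 18 higher, against 1.53% of all genes (Gars 0.7 ± 0.15, Eprs 0.82 ± 0.18). Nucleotide, polyamine and one-carbon synthesis gave 5 higher and 1 lower of 29, against 1.53% and 2.7% of all genes. Among them were Gart (1.23 ± 0.27) and Paics (0.55 ± 0.12) of purine synthesis. None of these passed with the averaged arrays.

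Rps19, a small-subunit protein needed for its maturation, read 12.48, 12.37 and 12.3 against 13.2, 13.29 and 13.18, 1.79-fold higher, and passed in all 22 fits. Over 24 cytosolic ribosomal protein genes every difference was positive, against 53.5% of all genes, with a median of 0.23. Of the 24, 2 were called higher, against 1.53% of all genes, and Rps19 alone with the averaged arrays. Pkm, pyruvate kinase, read 11.28, 11.37 and 11.35 against 12.41, 12.17 and 12.68, 2.12-fold higher; it passed in 21 fits and missed without non-malignant 3. Of 17 glycolysis genes, 4 were higher, against 1.53% of all genes, and none lower. Of the 4, Pkm alone also passed with the averaged arrays. The tumor medians were 0.53, 0.51 and 0.44. Tpi1 (1.58 ± 0.27) and Aldoa (1.2 ± 0.23), enzymes of the same pathway, did not pass with the averaged arrays or without any one of the non-malignant arrays. Acaa2, a mitochondrial enzyme of fatty acid oxidation, read 9.89, 9.92 and 9.85 against 10.88, 11.22 and 11.38, and Macrod1, a mitochondrial hydrolase of ADP-ribose, read 7.55, 7.27 and 7.05 against 8.56, 8.78 and 8.71. Both passed in all 22 fits and were named after their values were seen. Oxidative phosphorylation gave 1 higher call of 34, near the 1.53% of all genes and lost with the averaged arrays, at a median of 0.25.

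The CACGTG sequence, the E-box that Myc binds, was counted from 250 bases before to 50 bases after the start, as the interferon motif was. It stood in 33 of 173 promoters of genes called higher (19.1%), in 6.91% of those called lower and in 9.6% of all tested genes with a promoter sequence. Among ribosome biogenesis genes 10 of 35 held it and among Myc targets 6 of 16. The Ldha promoter, with its 2 matches in capitals 145 and 48 bases before the start, is given as an example.
Ldha, chr7:46845554-46845803, + strand: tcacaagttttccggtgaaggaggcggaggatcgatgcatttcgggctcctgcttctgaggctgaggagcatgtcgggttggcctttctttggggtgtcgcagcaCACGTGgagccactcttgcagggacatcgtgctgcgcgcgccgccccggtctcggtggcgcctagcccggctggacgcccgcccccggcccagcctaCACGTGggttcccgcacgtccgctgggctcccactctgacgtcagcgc
The letters read the same on both strands, and a match is a description, not evidence of binding. TGGGAA, the core that RBPJ binds, was searched on both strands as well and stood in 23.2% of all tested promoters, 23.6% of those called lower and 17.9% of those called higher; 5 of 12 Notch targets with a promoter sequence held it.

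Of 30 genes of G2/M and mitosis, 1 was lower, a share near the 2.7% of all genes. Differences were negative for 24 of the 30, and 10 had all tumors below all non-malignant values, against 14.8% of all genes; the median was -0.36, at -0.31, -0.25 and -0.37 in the 3 tumors. Top2a, the topoisomerase of dividing cells, read 11.66, 11.73 and 11.7 against 11.12, 10.98 and 10.96. Of 31 genes of G1/S and DNA replication, 1 was lower, Ccne2 (cyclin E2), a share near the 2.7% of all genes. None was higher, and the median was 0.1. Neither Top2a nor Ccne2 passed with the averaged arrays. Ccnd3, the cyclin that thymocytes use to expand, was lower on every tumor, at 12.58, 12.3 and 12.28 against 11.14, 11.03 and 10.47, 2.84-fold, and passed in 21 of 22 fits. Of 20 genes of p53 and its targets, 1 was lower, against 2.7% of all genes. This was Pmaip1, a promoter of cell death, by -2 ± 0.38, or -1.35 with its 3 dim tumor values raised, and not with the averaged arrays.

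The largest single fall was that of Tm4sf5, a membrane protein gene of the tetraspanin-related L6 family. It read 11.74, 11.89 and 12.01 in the non-malignant samples and 6.33, 6.71 and 5.28 in the tumors, with controls at 5.1, 5.34 and 5.32. The difference of -5.78 ± 0.31 was 54.8-fold at an adjusted p of 4.4e-05 (limma). Idi2 and Cdh1 were high in the non-malignant samples and dim on all other arrays. Idi2, an isopentenyl diphosphate isomerase, read 8.42, 8.62 and 8.51 against 4.59, 4.82 and 4.87, a bound of -3.29 with the dim tumor values raised, and Cdh1, E-cadherin, read 6.24, 6.52 and 6.68 against 3.8, 3.38 and 3.55, a bound of -1.25. Both genes were dim on all tumor and control arrays and entered the test only through the non-malignant group, so passing it adds nothing to these values; Idi2 was not tested in 3 alternative fits and Cdh1 not in 4. Slfn8, a Schlafen family gene, read 9.63, 9.59 and 9.55 against 7.37, 7.41 and 6.63, and Tle6, a Groucho-related protein gene, read 10.88, 10.08 and 9.84 against 7.61, 7.29 and 7.04. Both passed in all 22 fits and were named after their values were seen.

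Further steady falls came from several families. Xbp1, a transcription factor of the secretory pathway and the unfolded protein response, read 10.65, 10.74 and 10.6 against 8.86, 8.36 and 7.83, 4.97-fold lower and well below the controls at 10.22 to 10.85. Gimap8, a GTPase of lymphocyte survival, fell by 1.96 on the log2 scale, Nkg7, a granule protein gene of cytotoxic cells, by 1.64, and the adhesion molecule gene Icam2 by 1.2. These 4 passed in all 22 fits. Of the 15 cytotoxic and NK genes, 4 were lower, against 2.7% of all genes, and of 21 adhesion genes 5 were lower. With non-malignant 2 and 3 averaged, 1 of the 4 (Nkg7) and 2 of the 5 (Icam2 and Cdh1) passed. Cdh1 entered the test only through the non-malignant group, so its call adds nothing to either adhesion count. With the averaged arrays Prf1 (perforin, -1.52 ± 0.34) and Gzmb (granzyme B, -0.86 ± 0.16) did not pass, at adjusted p of 0.154 and 0.119 (limma). Over the 15 cytotoxic and NK genes the median was -0.29, at -0.43, -0.15 and -0.04 in tumors 1 to 3, and 4 differences were positive. Their summed linear signal was 6770 to 10461 in the non-malignant samples and 9274, 2438 and 8882 in tumors 1 to 3. Hspa1b, an inducible HSP70 gene, read 10.34, 11.64 and 11.7 against 8.17, 6.11 and 6.2; its control values ran from 7.15 to 10.86, a wider spread than the tumors had. That call, at an adjusted p of 0.0351, was lost with the averaged arrays and without tumor 2, tumor 3, control 1 or any non-malignant array. Tctex1d1, a dynein light chain family gene, fell from 9.56, 9.34 and 9.33 to 7.07, 4.36 and 5.36 and lost its call only without non-malignant 3. Fgf13, a growth factor homologue inside the cell, read 8.5, 9.83 and 9.88 against 4.77, 7.8 and 3.68 and did not pass with the averaged arrays.

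The largest rises were less steady than the falls. Susd4, a complement regulator, read 6.8, 6.9 and 7.09 in the non-malignant samples and 8.94, 8.36 and 10.6 in the tumors, 5.16-fold higher, and Chchd10, a mitochondrial protein gene, read 7.75, 7.48 and 7.35 against 9.05, 10.58 and 9.92, 5.02-fold higher. With non-malignant 2 and 3 averaged their adjusted p was 0.13 and 0.058. The other 8 of the 10 largest rises, Ccdc18, Prmt7, Chd7, Fbln1, Sbf2, Rangrf, Tln2 and Tspan9, had differences of 1.89 to 2.31, and none of the 10 passed with the averaged arrays or without non-malignant 2 or 3. Fbln1, Tln2 and Prmt7 rested on the choice of probe set. The 3 probe sets of Fbln1 gave 2.1, 1.08 and -0.22. Those of Tln2 gave 1.96, 0.74 and 0.01, and those of Prmt7 gave 2.15 and 0.35. Matk, a Csk-related kinase gene, is one of the 11 that did pass with the averaged arrays, with Pkm, Rps19, Acaa2, Macrod1, Mnd1, Zfp783, Car12, Stard10, Ssbp4 and Hddc2.

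**Figure D4:**
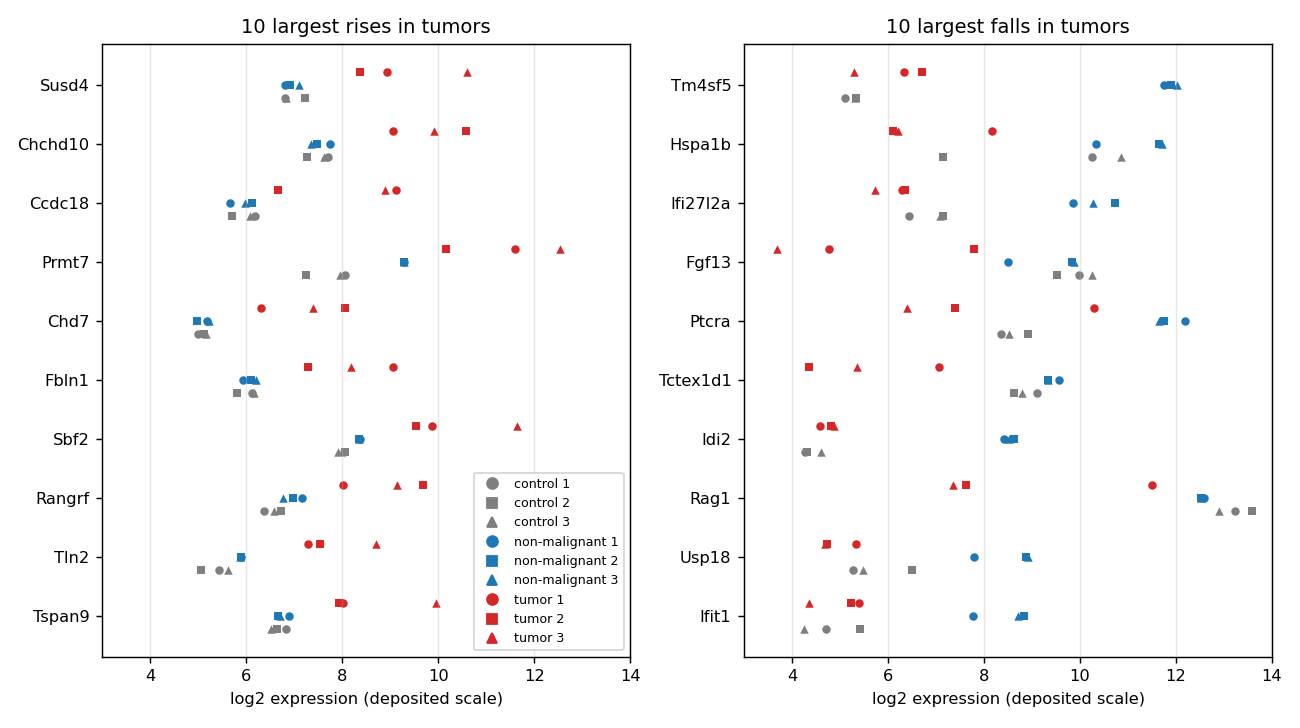
Log2 expression on each array of the genes with the largest called rises and falls between non-malignant samples and tumors, with 1 point per array. Tm4sf5 falls from 11.74 to 12.01 down to 5.28 to 6.71, and Susd4 rises from 6.8 to 7.09 up to 8.36 to 10.6.

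Each tumor also had genes that none of the other 8 arrays shared. At least 2-fold above all other arrays were 21 genes in tumor 1, 69 in tumor 2 and 94 in tumor 3; at least 2-fold below were 7, 52 and 448. In the other groups these counts were 53 above and 43 below in control 2, and at most 6 above and 2 below on the other 5 arrays. These are single arrays, so the counts have no replicate check. In tumor 1, Ifi202b, an interferon-inducible HIN-200 gene, read 10.37 against 5.03 and 5.24 in tumors 2 and 3 and 6.09 to 7.27 in the non-malignant samples, and Afdn, the junction protein afadin, read 9.87 against at most 7.47 elsewhere. Tut4, a uridylyltransferase that modifies microRNA precursors, was lowest there at 5.48. In tumor 2, Vim, the filament protein vimentin, read 13.99 against 9.51 to 10.84 on the other arrays, Rtl3 read 9.42 and Crybg1 read 8.94. Tumor 2 was also highest in Aqp1 (8.65), a water channel, and Car1 (9.2), carbonic anhydrase 1, both abundant in red cells. The signal summed over 8 erythroid and platelet markers, Car1 included, was 3488 in tumor 2 and 830 and 918 in tumors 1 and 3, with the globin gene Hba-a1 and Gata1 too dim to be tested. The part of these markers in the tumor 2 values was not tested.

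Tumor 3 stood out by its losses. Lyst, a regulator of lysosome size, read 5.55 against 9.45 and 9.22 in the other tumors and 10.02 to 10.35 in the non-malignant samples, and Rbms1, an RNA-binding protein gene, read 4.2 against 8.68 and 7.7. Batf, an AP-1 family factor of activated T cells, read 12.45 there against 8.25 and 9.3 in the other tumors and 8.92 to 9.33 in the non-malignant samples, and Olfml3 read 8.25 against 5.18 and 5.63. Tumor 3 is the array with the narrowest value spread and the highest spike-in signal given above, and the part of this in its 448 low genes was not tested. T cell receptor segments also differed between the tumors. Trgv1, a gamma chain variable segment, read 10.72 in tumor 1, 6.47 in tumor 2 and 9.95 in tumor 3, against 9.48 to 10.26 in the non-malignant samples and 6.29 to 6.77 in controls. One of the Trbv1 probe sets read 9.42, 9.18 and 6.84 in the 3 tumors, against 8.81 to 9.85 in the non-malignant samples. The other, brighter Trbv1 probe set differed less, at 13.48, 13.09 and 12.76 in the tumors against 13.52 to 13.61.

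**Figure D5:**
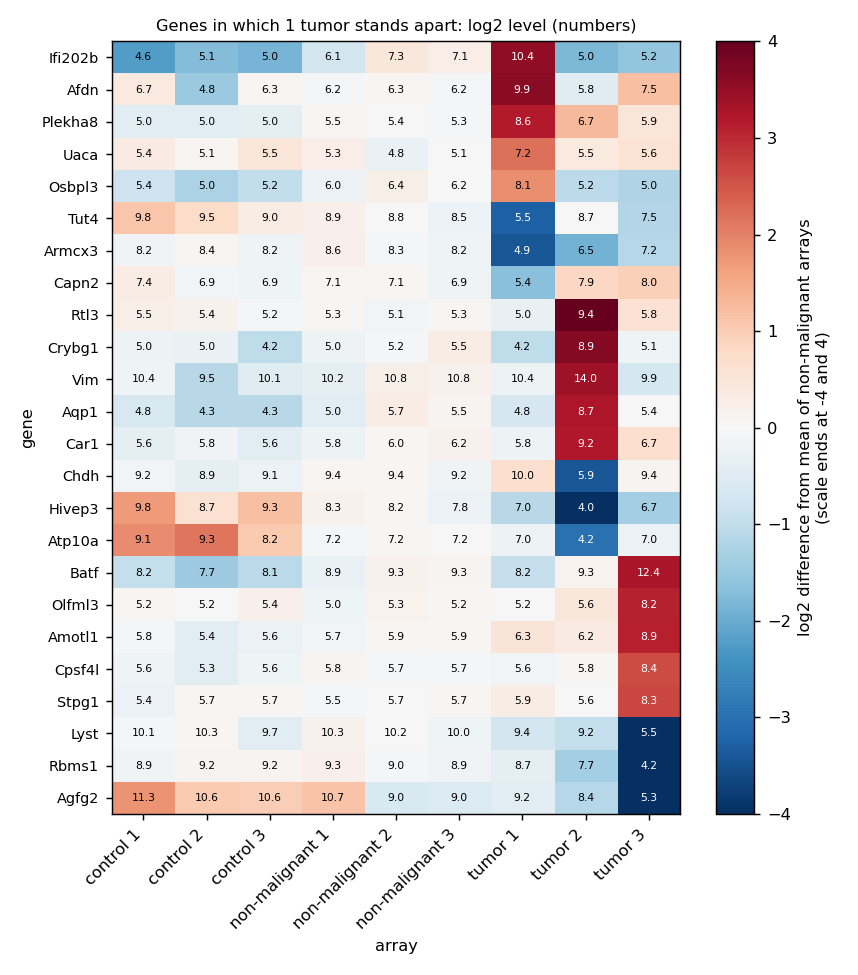
Heat map of genes in which 1 tumor stands apart (rows) on the 9 arrays (columns), with the log2 level as the number in each cell and colour for the log2 difference from the mean of the non-malignant arrays, on a scale that ends at -4 and 4. Ifi202b stands out in tumor 1 at 10.37, Vim in tumor 2 at 13.99 and Batf in tumor 3 at 12.45.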

How the data were processed

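RNA of sorted mouse cells from 9 samples in 3 groups of 3 was hybridised to Affymetrix arrays and handled by a microarray core, per the labels. The authors deposited log2 values for 45101 probe sets. How they corrected background, normalized and summarized the probes is not given in the sources used here. That the scale is log2 was inferred from its range, 2.68 to 14.57. There are 34945 probe sets with 1 gene symbol, 932 with several, 9160 with none and 64 array controls; those with 1 symbol gave 18161 genes, named through RefSeq by Entrez ID (34741) or symbol (202), with 2 under the platform's name. The brightest probe set over the 9 arrays stood for each gene, which was tested if that probe set lay above the 40th percentile on at least 3 arrays (13288 genes).

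All 9 arrays entered a linear model of the 3 group means in limma 3.58.1 in R 4.3.3, with variances moderated along a trend on mean level (residual degrees of freedom 6, prior 3.6), and tumors were compared with non-malignant samples, two-sided. A gene was called at a Benjamini-Hochberg adjusted p under 0.05. An exact permutation test of 3 against 3 cannot go below 0.1. Values below the 40th percentile of an array are called dim, and bounds raise them to it. The number of arrays sets the limit of precision. Tables were made in Python 3.11.15 with pandas 2.3.3.

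On simulated data for this comparison (5 draws, 200 changed genes among 13288, each group at its own spread) the fit recovered 55.6% of 2-fold and 92.6% of 4-fold changes with 57.6 false calls per draw, more than the threshold allows; with a separate variance per group it recovered 42.8% and 86.8% with 36.6 false calls. The likeness of non-malignant 2 and 3 was not simulated.

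The genes described, 46 lists (1120 entries, 1021 matched; the rest not analysed here) and the promoter motifs were chosen with earlier results of these data known. Named are the 10 largest called rises and falls with groups apart (without clone, predicted and RIKEN names), 3 members per list, those with the lowest adjusted p, 21 genes of interest such as Notch1 and Rag1, the genes most particular to each tumor, and others chosen after their values were seen, such as Irf7, Gbp6, Fyn, Acaa2, Slfn8, Matk and further list members. Samples with the same replicate number did not deviate together (correlations of -0.05, 0.02 and 0.09), and they were not treated as pairs. The labels do not say whether the numbers pair samples, and these correlations over all genes cannot decide it. The alternatives were other scaling, filters, probe set rules, variance models, weights, thresholds, the 6 arrays alone, a replicate block, averaging non-malignant 2 and 3, and leaving out each array. Of these, 22 are fits that can change a single gene's call.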

Additional observations from a re-analysis of the deposited data

How the results depend on the processing

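Against 562 calls (203 higher, 359 lower), a count between 381 and 672 came from quantile or median scaling, no filter, a filter at the 60th percentile, the mean of probe sets, every probe set, no trend and a robust fit; within these, genes called higher numbered 130 with no filter and 121 with every probe set. Array weights gave 5698 calls (3199 higher, 2499 lower). A separate variance weight per group gave 283 (74 higher, 209 lower), and 270 of the 562 genes were shared. Only the 6 arrays compared gave 110 (22 higher, 88 lower). Averaging non-malignant 2 and 3 gave 73 (11 higher, 62 lower). With the replicate number as a block there were 287 calls (72 higher, 215 lower). Whether the numbers pair the samples is not stated, so how to read a call lost there is not settled. An adjusted p of 0.01 left 83 (14 higher, 69 lower), and a 2-fold minimum left 356 (95 higher, 261 lower). Leaving out 1 array gave 57 to 3407 calls, 6 to 1574 of them higher and 51 to 1833 lower, lowest without non-malignant 3 and highest without tumor 1.

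Of the 220 genes named, 18 changed sign in at least 1 alternative. For 16 of these the gene was called neither here nor in that alternative, and its difference here was at most 0.94 in size, so its direction is not settled; they include Vim, Batf, Aqp1, Chdh and Trgv1. The other 2 were called in one of the fits. Fbln1 was -0.18 without tumor 1 and -0.24 without tumor 3, where another of its probe sets was chosen, and reached 2.54 over the fits without 1 array. Ifi202b, which is high in tumor 1 alone, was -1.58 with array weights and ran from -1.69 without tumor 1 to 0.98 without tumor 2. The cause of the other changes was not tested. Signal over background limits the lower end: 482 of the 562 called genes were above the dim level on all 6 arrays.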
